A study of Mus musculus with 35 samples.

Results

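The RNA of 34 genes of the p53 response was followed in NMuMG cells, a mouse mammary gland epithelial cell line, given the vehicle DMSO or an inhibitor labelled JNKi. The 34 genes were chosen by symbol, with earlier results of these data known, and all 34 were present among the 20261 genes of the table. They comprised Trp53 itself, its regulators Mdm2 and Mdm4, and genes known as p53 targets. The 20 libraries formed 10 groups, DMSO or JNKi at 24, 48, 72 or 96 h or 7 days, each with 2 replicates. All groups were wild type cells of the strain labelled E9. The labels name neither the JNKi compound nor its dose. The titles of all 20 libraries begin with EMT TC, and the protocol attached to each gives TGF-β at 2 ng/ml for time courses, while the treatment field names DMSO or JNKi alone. Separate cultures are not stated for the replicates, and the p-values then reflect no more than the spread between libraries, possibly a technical one. A further 15 samples of a TGF-β time course were not analysed here.

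p53 is a transcription factor that is kept scarce by Mdm2, a ubiquitin ligase that marks it for degradation, and is held inactive by the related Mdm4. Stress such as DNA damage releases p53 from this control, and it then binds paired decamers in DNA and raises genes of cell cycle arrest, apoptosis, DNA repair and metabolism, Mdm2 among them, which closes a feedback loop. Its control is largely on the protein, so the RNA of Trp53 need not follow the activity of the factor. JNK is a stress-activated kinase that phosphorylates c-Jun, a part of the AP-1 transcription factor, and p53 is also among its known substrates.

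Promoter windows of RefSeq (build GRCm38.p6, from 250 bases before to 50 bases after a start) were found for 26 of the 34 genes and searched for the p53 response element. The element was scored as 2 adjacent decamers of its consensus, with no spacer, the core C and G of each decamer kept and up to 2 other mismatches allowed. The consensus is palindromic, so a match covers both strands. It was found in 3 of the 26 genes (11.5%), against 58 of the 13856 genes of the table with a window (0.419%) and 0.326% of all 32851 windows. These 3 matches, in Ccng1, Cdkn1a and Gtse1, are all that were found in the 26 genes. The 3 genes had higher RNA under JNKi below. So did Fas, Eda2r, Aen, Apaf1, Ercc5, Fdxr and Slc19a2, whose windows held no match. Each of the 3 matches held 1 mismatch to the consensus, and the capitals mark the match.
Ccng1 (chr11:40755417-40755526, minus strand): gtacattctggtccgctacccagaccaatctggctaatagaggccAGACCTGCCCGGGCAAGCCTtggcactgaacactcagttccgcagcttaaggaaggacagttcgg
Cdkn1a (chr17:29090883-29090978, plus strand): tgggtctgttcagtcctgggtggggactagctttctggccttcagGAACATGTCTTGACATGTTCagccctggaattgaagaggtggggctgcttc
Gtse1 (chr15:85859945-85859964, plus strand): GAGCAAGTTGGGGCTTGCCT
The Ccng1 match begins 195 bases before the start, the Cdkn1a match 51 bases before the more upstream of 2 listed starts, and the Gtse1 match 1 base before the start. The letters TGANTCA, which cover the consensus site of AP-1, were searched on both strands and found in 2 of the 26 genes (7.7%), Fas and Mdm4, against 7.98% of the genes of the table and 7.81% of all windows. A match is a description of the letters and was not tested as a binding site. Zmat3, Tnfrsf10b, Pmaip1, Perp, Trp53inp1, Xpc, Ddb2 and Rrm2b were not among the windows used here.

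Values are normalized read counts, which the authors scaled to make libraries comparable, and they are given for replicate 1 and then replicate 2 of each group. Depth ranged from 9.5 M reads (JNKi at 7 days, replicate 1) to 48.6 M (DMSO at 72 h, replicate 1). The shallowest library also stood apart in Lars2, at 15936 reads per M reads (RPM) against 1113 to 3534 in the other libraries. Krt8, Krt18 and Cdh1, which mark epithelial cells, were present in every library, but Epcam was at 0 in 15 of 20 libraries, Cldn3 in 9 and Cldn7 in 8, and Esrp1 reached 0.847 RPM at most. The summed leukocyte markers lay at 3.47 to 15.4 RPM, the endothelial ones at 2.00 to 21.2 and the adipocyte ones at 0 to 1.05, while 5 mesenchymal markers summed to 4288 to 18906 RPM. Changes were tested with limma on log2(value + 1) for the 13896 genes whose mean reached 10 in any group, and called at a p-value adjusted over all of them under 0.05. Unless another fit or setting is named, called and passed refer to this main fit. All 34 genes were tested, and the lowest value of any of them in any library was 47.0. Every change below is a log2 difference on that scale, with the standard error (SE) of the model. In bulk RNA, a change in the number of cells that express a gene and a change in RNA per cell cannot be told apart.

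With JNKi the p53 response genes were on the whole higher than with DMSO, by modest amounts. In the mean over the 5 times, 10 of the 34 genes rose and none fell: Cdkn1a, Ccng1, Zmat3, Fas, Eda2r, Perp, Trp53inp1, Aen, Ercc5 and Slc19a2. Their changes ran from 0.15 (Aen) to 0.71 (Fas). The sign was positive for 30 of the 34 genes, with a median change of 0.10, against 7167 positive of the 13896 genes tested and a median of 0.004. Those 10 are 29.4% of the 34, where 2.45% of all genes tested rose and 2.32% fell. As the genes were chosen with earlier results of these data known, such shares describe the list and are not an independent test of it. Trp53 itself differed by 0.02 (adjusted p = 0.823 with limma).

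At 7 days 10 genes rose with JNKi and 1 fell, that is 29.4% and 2.9% of the 34, against 4.84% and 5.33% of all genes tested. Those that rose were Cdkn1a, Ccng1, Gtse1, Zmat3, Perp, Trp53inp1, Apaf1, Ercc5, Fdxr and Slc19a2, and the gene that fell was Gadd45a. The median change was 0.19, against 0.02 for all genes. This comparison shares its libraries with the mean over times, so the lists are not independent. The total of 11 became 5 without DMSO replicate 1 of that time, 6 without JNKi replicate 1 (the library with high Lars2), 6 without JNKi replicate 2 and 12 without DMSO replicate 2. Gtse1, Perp, Ercc5 and Slc19a2 passed the test whichever of these 4 libraries was left out. The summed mesenchymal markers also differed at 7 days, at 5565 to 6065 RPM with JNKi and 9506 to 10609 with DMSO. Fn1 (76921 and 86707 normalized reads with JNKi, 218959 and 171211 with DMSO), Tagln and Cdh2 lay lower with JNKi. Vim and Acta2 overlapped between the arms. The mesenchymal sum was lower with JNKi also at 48, 72 and 96 h, but its genes differed in direction. Fn1 lay lower with JNKi at each of these times. Acta2 lay higher at each, without overlap (1514 and 2582 with JNKi, 934 and 1091 with DMSO at 72 h). Tagln, Cdh2 and Vim overlapped between the arms at 48 h. Tagln and Cdh2 lay lower with JNKi at 72 and 96 h, and Vim at 96 h only. The summed epithelial markers stood at 3854 to 4020 RPM with JNKi and 4676 to 6011 with DMSO at 7 days. The part of either marker set in the result was not tested.

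From 24 to 96 h no single time called any of the 34 genes with limma in the main fit, which has no replicate block. Over all genes tested calls were scarce too: at 24 h 0% rose and 0% fell, and 48 h likewise gave 0% and 0%. The shares were 0.0432% and 0.0288% at 72 h, and 96 h gave 0.0072% and 0%. At an unadjusted p under 0.05, the numbers of the 34 genes that differed from 24 to 96 h were 3, 9, 11 and 5, in the order of the times, and each of these was higher with JNKi. Over all 13896 genes tested the numbers were 610, 521, 1125 and 677, of which 365, 307, 512 and 339 were higher with JNKi. On the recovered reads edgeR called 0 at each of these 4 times, and DESeq2 called 0, 0, 5 and 0, the 5 at 72 h being Ccng1, Fas, Eda2r, Perp and Slc19a2. With a replicate block within each time limma called Btg2 and Trp53inp1 at 24 h, Ccng1 and Fas at 48 h and Ccng1 at 96 h. At 72 h that fit called Ccng1, Zmat3, Fas, Eda2r, Pmaip1, Perp, Trp53inp1 and Slc19a2. Its share over all genes is not given here. The mean over 24 to 96 h, a comparison added after the data were seen, called 5 of the 34 genes as higher and none as lower, against 0.216% and 0.13% of all genes. They were Ccng1 (0.40), Fas (0.72), Eda2r (0.41), Perp (0.31) and Slc19a2 (0.28), so these 5 differed also in a mean that leaves out 7 days. The libraries of 7 days still entered the fit and its estimate of the spread.

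Counted without a model, both JNKi values lay above both DMSO values for 7 of the 34 genes at 24 h (20.6%), 16 at both 48 h (47.1%) and 72 h (47.1%), 12 at 96 h (35.3%) and, at the end, 19 at 7 days (55.9%). The same share over all genes tested was 14.7%, 13.8%, 18.3%, 19.7% and 32%. Both JNKi values lay below both DMSO values for 2, 1, 1, 4 and 4 of the 34 genes, which is 5.9%, 2.9%, 2.9%, 11.8% and 11.8%, against 12.3%, 15.3%, 18.1%, 19.7% and 26.2% of all genes. Cdkn1a, Fas and Slc19a2 were higher without overlap at all 5 times, and Ccng1, Zmat3, Eda2r and Perp at 4. With Mdm2, Tnfrsf10b, Trp53inp1, Ei24, Aen and Ercc5 at 3 times, 13 of the 34 genes were higher at 3 or more times, against 8.86% of all genes. None was lower at 3 or more times, against 8.8% of all genes.

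**Figure D1:**
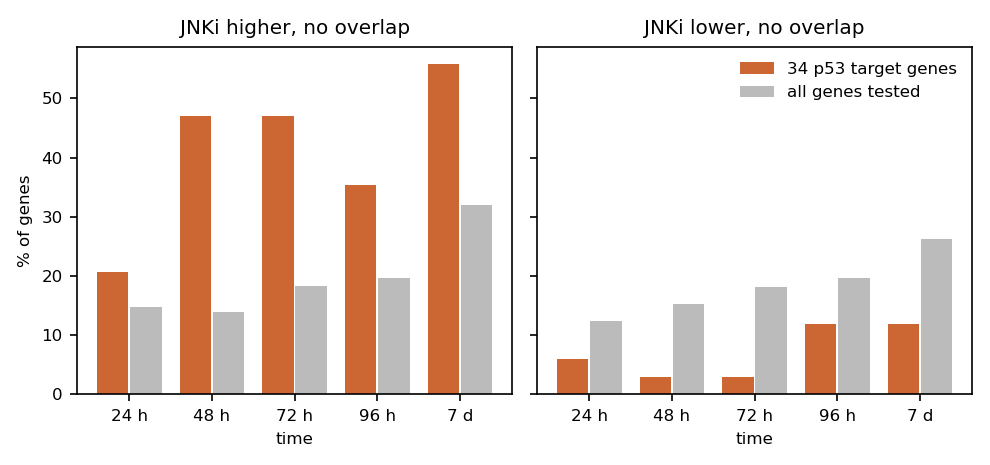
Share of genes (y axis, percent) whose 2 JNKi libraries both lay above, or both below, the 2 DMSO libraries at each time (x axis), for the 34 p53 response genes and for all 13896 genes tested. The share higher is above that of all genes at every time, from 20.6% at 24 h to 55.9% at 7 days, and the share lower is below it.

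**Figure D2:**
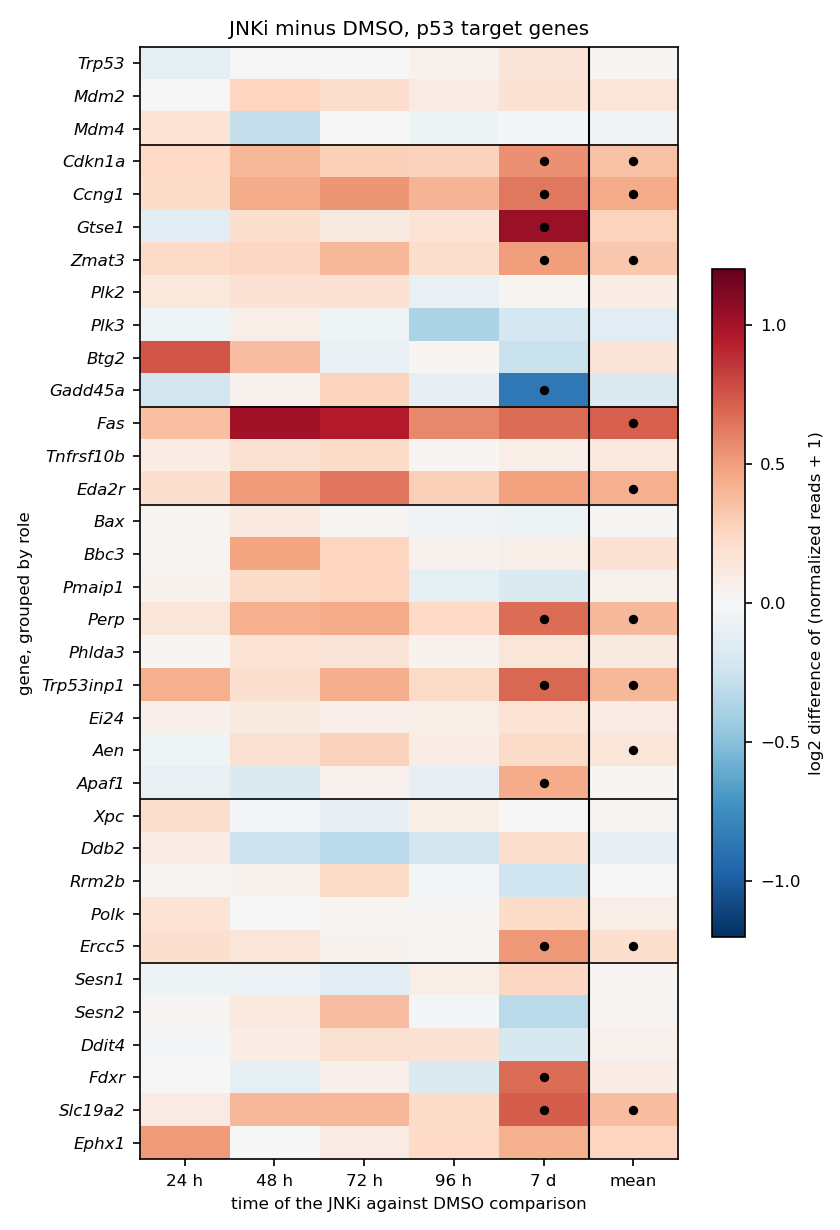
Difference between JNKi and DMSO (colour, log2 of value + 1) for each of the 34 genes (rows, by role) at each of the 5 times and in their mean (columns), with a dot where the adjusted p was under 0.05. Fas, Ccng1, Eda2r, Perp, Cdkn1a, Zmat3, Trp53inp1 and Slc19a2 are among the genes positive at all 5 times. Gtse1, Apaf1 and Fdxr (positive) and Gadd45a (negative) carry a dot at 7 days alone.

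The gene of p53 and its regulators did not pass the test between JNKi and DMSO, neither in the mean nor at 7 days (0 of 3). In DMSO Trp53 measured 6308 and 6705 (24 h), 6859 and 6319.9 (48 h), 5552 and 5691 (72 h), 4406 and 4637 (96 h) and 5125 and 5225 (7 days). JNKi libraries held Trp53 at 5819 and 6228 (24 h), 6313 and 6882 (48 h), 5465 and 5742 (72 h), 4647 and 4713 (96 h) and 5817 and 5667 (7 days). Trp53 lay lower with JNKi at 24 h, higher at 96 h and 7 days, and the replicates of the 2 arms overlapped at 48 and 72 h. Its difference at 7 days was 0.15 (adjusted p = 0.196 with limma).

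Mdm2, the ligase that degrades p53, was by far the most abundant of the 34. With DMSO Mdm2 came to 65985 and 74479 (24 h), 74598 and 83416 (48 h), 102064 and 96348 (72 h), 124771 and 146503 (96 h) and 132727 and 113868 (7 days). Mdm2 with JNKi measured 69221 and 70746 (24 h), 85871 and 103792 (48 h), 116168 and 112139.8 (72 h), 144024 and 144689.8 (96 h) and 134952 and 142843 (7 days). Its level climbed in both arms up to 96 h, and JNKi lay above DMSO without overlap at 48 h, 72 h and 7 days. The difference was 0.15 in the mean (adjusted p = 0.176 with limma) and 0.18 at 7 days (adjusted p = 0.419). The latter was 0.29 or 0.065 without DMSO replicate 1 or 2 of 7 days. With a replicate block within each time limma called Mdm2 in the mean.

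Mdm4 binds and holds back p53 without degrading it. Mdm4 stood at 944 and 826 (24 h), 1168 and 1128 (48 h), 1154 and 1177 (72 h), 1668 and 1495 (96 h) and 1284 and 1043 (7 days) in DMSO. With JNKi Mdm4 stood at 1121 and 872 (24 h), 1167 and 758 (48 h), 1182 and 1152 (72 h), 1572 and 1464 (96 h) and 1039.8 and 1249 (7 days). The arms overlapped at all 5 times, with a mean difference of -0.04.

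Per kilobase of exon, on the scale of normalized reads and with lengths from the GENCODE annotation of GRCm38, Mdm2 had a mean level of 21043. The next were Plk2 at 3348 and Ddit4 at 2457, Trp53 came in at 1411 as the eighth, and the lowest were Mdm4 at 79.3 and Sesn1 at 37.7. Mdm2 made up 48.7 to 64.7% of the RPM of the 34 genes in each library. With a mean of 106960.3 normalized reads it ranked 12 among the 20261 genes, and 2 to 22 over the libraries, where it took 2272 to 5576 RPM. By the RefSeq gene order, 3 neighbours on its one side were also abundant: Slc35e3 (mean 23789, rank 114), Nup107 (39233, rank 49) and Rap1b (77271, rank 20). Beyond them Mdm1 had a mean of 3793 (rank 1754), and on the other side Cpm had 2820.2 (rank 2440) and Cpsf6 had 2923 (rank 2357). These levels are not per length, and the number of copies of this region in the cells was not analysed here.

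**Figure D3:**
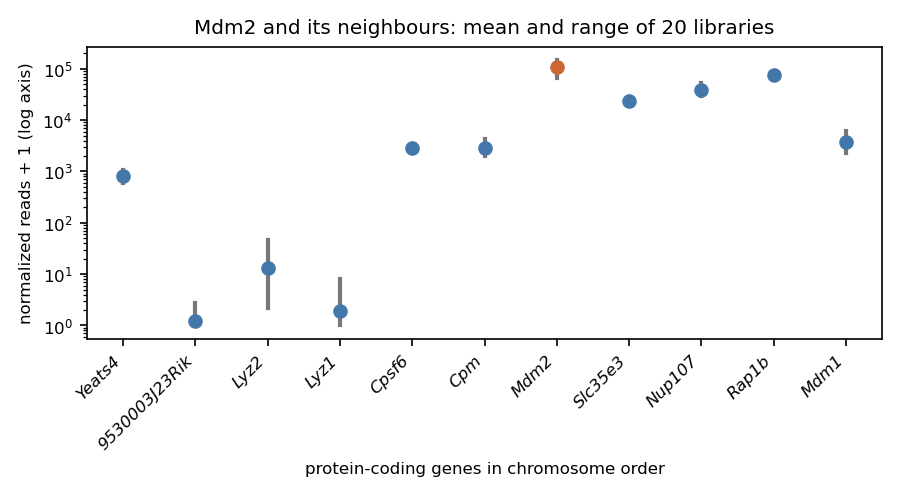
Mean normalized read count plus 1 over the 20 libraries (y axis, log scale) of Mdm2 and the protein-coding genes next to it in the RefSeq gene order (x axis), with a line from the lowest to the highest library. Mdm2, Slc35e3, Nup107 and Rap1b have means of 23789 to 106960.3, while Cpm, Cpsf6 and Mdm1 beside them have means of 2820.2 to 3793.

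Among the 8 genes of cell cycle arrest and growth control, Cdkn1a, Ccng1 and Zmat3 rose with JNKi in the mean over times and none fell. At 7 days Gtse1 joined them, and Gadd45a fell. Cdkn1a encodes p21, the inhibitor of cyclin-dependent kinases that carries much of the p53 arrest. In DMSO Cdkn1a measured 4576 and 4249.8 (24 h), 4524 and 4039 (48 h), 4776 and 4152 (72 h), 3290.0 and 3982 (96 h) and 4482 and 6371 (7 days). JNKi libraries held Cdkn1a at 5186 and 5213 (24 h), 5641 and 5608 (48 h), 5698 and 5146 (72 h), 4403 and 4388 (96 h) and 7683 and 7907 (7 days). Every JNKi library lay above both DMSO libraries of its time. Over the 5 times its change averaged 0.35 (SE 0.057, adjusted p = 0.00259 with limma), and at 7 days it was 0.54 (SE 0.13, adjusted p = 0.0136 with limma). The call at 7 days was lost without DMSO replicate 1 of that time (0.29, adjusted p = 0.202), JNKi replicate 1 (0.56, adjusted p = 0.0798) or JNKi replicate 2 (0.52, adjusted p = 0.0839).

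Ccng1 encodes cyclin G1, a p53 target that takes part in the control of Mdm2. With DMSO Ccng1 came to 6035 and 4872 (24 h), 5649 and 5089 (48 h), 5236 and 5636 (72 h), 4342 and 4792 (96 h) and 6805 and 7706 (7 days). Ccng1 with JNKi measured 7017 and 5659 (24 h), 7814 and 6822 (48 h), 7666 and 8023 (72 h), 6148 and 5975 (96 h) and 11024 and 11375 (7 days). The arms overlapped at 24 h and lay apart from 48 h on, with the highest values of all in JNKi at 7 days. In the mean over times it changed by 0.45 (SE 0.051, adjusted p = 0.000159 with limma), and at 7 days it was 0.63 (SE 0.12, adjusted p = 0.00287 with limma). Without DMSO replicate 1 of 7 days the latter was 0.54 (adjusted p = 0.0506).

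Zmat3 encodes a zinc finger protein that binds RNA. Zmat3 stood at 2831 and 2236 (24 h), 3756 and 3074 (48 h), 3796 and 3555 (72 h), 3909 and 4128 (96 h) and 3838 and 3805 (7 days) in DMSO. With JNKi Zmat3 stood at 3477 and 2507 (24 h), 4195 and 3911 (48 h), 4976 and 4741 (72 h), 4638 and 4664 (96 h) and 5587 and 5237 (7 days). Here too the arms overlapped at 24 h alone. Its mean change was 0.32 (SE 0.059, adjusted p = 0.00554 with limma). At 7 days it was 0.50 (SE 0.13, adjusted p = 0.0233 with limma), a call lost whichever of the 4 libraries of that time was left out, with changes of 0.51 and 0.49 without DMSO replicate 1 or 2 and of 0.46 and 0.55 without JNKi replicate 1 or 2.

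Gtse1, a gene of the G2 and S phases whose product restrains p53, behaved unlike those 3. In DMSO Gtse1 measured 1955 and 2196 (24 h), 1414 and 1123 (48 h), 1243 and 1489 (72 h), 534 and 664 (96 h) and 959 and 1489 (7 days). JNKi libraries held Gtse1 at 1681 and 2106 (24 h), 1359 and 1520.5 (48 h), 1341 and 1601 (72 h), 681 and 651 (96 h) and 2293 and 2616 (7 days). The arms overlapped from 24 to 96 h, both falling to their lowest values at 96 h, and JNKi then lay above DMSO at 7 days. The change at 7 days was 1.03 (SE 0.18, adjusted p = 0.00207 with limma), a 2.05-fold difference and the only one of the 34 that reached 2-fold at that time. The mean over times was 0.27 (adjusted p = 0.0647 with limma). DESeq2 called that mean (0.26, adjusted p = 0.0283), as did limma without DMSO replicate 2 of 7 days (0.33, adjusted p = 0.0129).

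Gadd45a, a sensor of stress that acts in growth arrest and DNA repair, fell with JNKi at 7 days. With DMSO Gadd45a came to 1227 and 1511 (24 h), 1251 and 1737 (48 h), 1760.2 and 1374 (72 h), 3357 and 5267 (96 h) and 4389.6 and 2957 (7 days). Gadd45a with JNKi measured 1177 and 1162 (24 h), 1307 and 1776 (48 h), 1725 and 2043 (72 h), 3455 and 4478 (96 h) and 1664 and 2365 (7 days). JNKi lay below DMSO at 24 h and at 7 days, with overlap between. The change at 7 days was -0.86 (SE 0.24, adjusted p = 0.0329 with limma), and the call was lost without DMSO replicate 1 (-0.58, adjusted p = 0.305) or JNKi replicate 1 of that time (-0.61, adjusted p = 0.286). Plk2, Plk3 and Btg2, a pair of stress kinases and an antiproliferative gene, did not pass the test between the arms, with mean differences of 0.08, -0.12 and 0.16. Btg2 had the largest difference of the 34 at 24 h, 0.75, which did not pass.

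Of the 3 death receptors, Fas and Eda2r rose with JNKi in the mean over times, and none passed at 7 days in the main limma fit. With a replicate block within each time limma called Fas and Eda2r at 7 days. Fas encodes the receptor through which Fas ligand triggers apoptosis. Fas stood at 94.2 and 76.4 (24 h), 95.7 and 59.8 (48 h), 103 and 128 (72 h), 60.3 and 47.0 (96 h) and 291 and 429.9 (7 days) in DMSO. With JNKi Fas stood at 118 and 101 (24 h), 154 and 152 (48 h), 197 and 252 (72 h), 89.7 and 71.3 (96 h) and 441 and 724 (7 days). Every JNKi library lay above both DMSO libraries of its time, and in both arms the level was low up to 96 h and highest at 7 days. Averaged over times, the change was 0.71 (SE 0.12, adjusted p = 0.00331 with limma), the largest of the 34, and at 7 days the difference was 0.67 (SE 0.27, adjusted p = 0.125 with limma), which did not pass. That difference was 0.39 without DMSO replicate 1 of 7 days, 1.03 without JNKi replicate 1 and 0.32 without JNKi replicate 2.

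Eda2r encodes a receptor of the ectodysplasin family. In DMSO Eda2r measured 412 and 293 (24 h), 391 and 348 (48 h), 436 and 472 (72 h), 572 and 689 (96 h) and 1009.9 and 966 (7 days). JNKi libraries held Eda2r at 445 and 356 (24 h), 526 and 525 (48 h), 685 and 734 (72 h), 775 and 759.9 (96 h) and 1250.5 and 1523 (7 days). The arms overlapped at 24 h and lay apart at the other 4 times. The mean change was 0.43 (SE 0.068, adjusted p = 0.00231 with limma). At 7 days it was 0.48 (SE 0.15, adjusted p = 0.0535 with limma), which narrowly missed the threshold, and there both edgeR (adjusted p = 0.0328) and DESeq2 (adjusted p = 0.0125) called it. Limma called it too when any 1 of the 4 libraries of 24 h was left out. Tnfrsf10b, the receptor of the ligand TRAIL, had a mean difference of 0.12, and its values ran from 977 to 1948.

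Among the 9 genes of mitochondrial and other apoptosis, Perp, Trp53inp1 and Aen rose with JNKi in the mean over times. At 7 days Perp, Trp53inp1 and Apaf1 rose. Perp encodes a membrane protein of desmosomes that p53 also uses in apoptosis. With DMSO Perp came to 1406 and 1652 (24 h), 794 and 764 (48 h), 1049.9 and 923 (72 h), 1136 and 1292 (96 h) and 1966 and 1989.8 (7 days). Perp with JNKi measured 1597 and 1781 (24 h), 970.1 and 1122 (48 h), 1340.5 and 1345 (72 h), 1444 and 1415 (96 h) and 2889 and 3428 (7 days). JNKi lay above DMSO at all times but 24 h, and both arms dipped at 48 h and were highest at 7 days. Over the 5 times its change averaged 0.39 (SE 0.049, adjusted p = 0.000324 with limma), and at 7 days it was 0.67 (SE 0.11, adjusted p = 0.00131 with limma).

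Trp53inp1 encodes a nuclear protein that aids p53 in stress. Trp53inp1 stood at 1962 and 1355 (24 h), 1865 and 1712 (48 h), 1922 and 1791 (72 h), 2972 and 2772 (96 h) and 2355 and 1946 (7 days) in DMSO. With JNKi Trp53inp1 stood at 2581 and 1866 (24 h), 2329 and 1799 (48 h), 2714 and 2324 (72 h), 3416 and 3315 (96 h) and 3502 and 3385 (7 days). The arms overlapped at 24 and 48 h and lay apart from 72 h on. In the mean over times it changed by 0.40 (SE 0.075, adjusted p = 0.00659 with limma). At 7 days it was 0.69 (SE 0.17, adjusted p = 0.0159 with limma), and this call was lost without DMSO replicate 2 (0.55, adjusted p = 0.0966), JNKi replicate 1 (0.66, adjusted p = 0.113) or JNKi replicate 2 (0.71, adjusted p = 0.0745) of that time.

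Aen encodes a nuclease that acts in apoptosis. In DMSO Aen measured 2032 and 2100.4 (24 h), 2308 and 2111 (48 h), 2232 and 2116 (72 h), 2226 and 2492 (96 h) and 2607 and 2876 (7 days). JNKi libraries held Aen at 2044 and 1951 (24 h), 2442 and 2564 (48 h), 2553 and 2727 (72 h), 2384 and 2628 (96 h) and 3230.2 and 3187 (7 days). JNKi lay above DMSO at 48 h, 72 h and 7 days, and the arms overlapped at 24 and 96 h. Averaged over times, the change was 0.15 (SE 0.037, adjusted p = 0.0328 with limma), the smallest of the 10 called. It missed the threshold when any 1 of 11 libraries was left out, with changes of 0.13 to 0.15: JNKi 7 days replicate 1 or 2, replicate 1 of DMSO at 24 h, 96 h and 7 days and of JNKi at 24 h, and replicate 2 of DMSO at 48 and 72 h and of JNKi at 48, 72 and 96 h.

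Apaf1 encodes the scaffold of the apoptosome. With DMSO Apaf1 came to 1245 and 1247 (24 h), 1222 and 1420.4 (48 h), 1307 and 1329.5 (72 h), 1036 and 1062 (96 h) and 823 and 868 (7 days). Apaf1 with JNKi measured 1262 and 1093 (24 h), 1243 and 1099.9 (48 h), 1383 and 1348 (72 h), 988 and 972 (96 h) and 1104 and 1199 (7 days). The DMSO libraries were lowest at 7 days, while the JNKi libraries of that time stayed near their earlier range. The difference at 7 days was 0.44 (SE 0.094, adjusted p = 0.00768 with limma), and in the mean it was 0.03. The call at 7 days was lost without DMSO replicate 1 (0.41, adjusted p = 0.0775) or JNKi replicate 2 of that time (0.38, adjusted p = 0.078).

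Bbc3 and Pmaip1 encode PUMA and NOXA, BH3-only proteins that set off the mitochondrial path. Bbc3 stood at 216 and 215 (24 h), 231 and 194 (48 h), 313 and 261 (72 h), 485 and 404 (96 h) and 495 and 522 (7 days) in DMSO. With JNKi Bbc3 stood at 189 and 254 (24 h), 258 and 335 (48 h), 326 and 359 (72 h), 458 and 458 (96 h) and 479.7 and 597 (7 days). Both JNKi values were above both DMSO values at 48 and 72 h, and the arms overlapped at the other 3 times.

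In DMSO Pmaip1 measured 1427 and 1643 (24 h), 2745 and 2884 (48 h), 2990.1 and 2862 (72 h), 3771 and 4478 (96 h) and 3701 and 3962 (7 days). JNKi libraries held Pmaip1 at 1525 and 1625 (24 h), 3330.5 and 3216 (48 h), 3721 and 3309.7 (72 h), 3734 and 3916 (96 h) and 3349.5 and 3449 (7 days). JNKi was above DMSO at 48 and 72 h and below it at 7 days. Neither gene passed the test, with mean differences of 0.17 for Bbc3 and 0.05 for Pmaip1. Bax, Phlda3 and Ei24 did not pass either, with mean differences of 0.01, 0.11 and 0.10. Without DMSO replicate 2 of 7 days limma called Phlda3 (0.14) and Ei24 (0.125) in the mean, and at 7 days (0.32 and 0.31).

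Of the 5 genes of DNA repair and nucleotide supply, Ercc5 rose with JNKi, both in the mean and at 7 days. Ercc5 encodes XPG, an endonuclease of nucleotide excision repair. With DMSO Ercc5 came to 519 and 467 (24 h), 637 and 581 (48 h), 750.0 and 826 (72 h), 664 and 660.5 (96 h) and 655 and 687 (7 days). Ercc5 with JNKi measured 588 and 546 (24 h), 673 and 676 (48 h), 809 and 814 (72 h), 709 and 649.8 (96 h) and 984 and 945 (7 days). JNKi lay above DMSO at 24 h, 48 h and 7 days, and the arms overlapped at 72 and 96 h. The mean change was 0.19 (SE 0.042, adjusted p = 0.0162 with limma), and at 7 days it was 0.52 (SE 0.094, adjusted p = 0.00263 with limma).

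Rrm2b encodes the p53-inducible subunit of ribonucleotide reductase. Rrm2b stood at 724 and 768 (24 h), 823 and 870.5 (48 h), 832 and 906 (72 h), 1524 and 1831 (96 h) and 1542 and 1159 (7 days) in DMSO. With JNKi Rrm2b stood at 770.2 and 739.7 (24 h), 842 and 901 (48 h), 911 and 1141 (72 h), 1655 and 1644 (96 h) and 1120.2 and 1148 (7 days). Both arms were highest at 96 h, with JNKi above DMSO at 72 h and below it at 7 days. Polk encodes a DNA polymerase that copies past damage.

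In DMSO Polk measured 923 and 783 (24 h), 988 and 806 (48 h), 959.7 and 1269.7 (72 h), 1249 and 1436 (96 h) and 1259 and 1212 (7 days). JNKi libraries held Polk at 1095 and 824 (24 h), 1048 and 768 (48 h), 1013 and 1237 (72 h), 1371 and 1333 (96 h) and 1386 and 1494 (7 days). The arms lay apart only at 7 days, with JNKi higher. Neither Rrm2b nor Polk passed the test (mean differences 0.01 and 0.08), nor did Xpc and Ddb2, which recognise damage in excision repair (0.04 and -0.10). At 7 days Rrm2b differed by -0.24, and limma called it as lower (-0.44) without DMSO replicate 2 of that time.

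Of the 6 genes of stress, redox and metabolism, Slc19a2 rose with JNKi in the mean and at 7 days, and Fdxr rose at 7 days. Slc19a2 encodes a thiamine transporter. With DMSO Slc19a2 came to 698 and 676 (24 h), 561 and 561 (48 h), 686 and 695 (72 h), 637 and 654 (96 h) and 707 and 714 (7 days). Slc19a2 with JNKi measured 750.0 and 722 (24 h), 744 and 739 (48 h), 889 and 926 (72 h), 775 and 733 (96 h) and 1181 and 1166 (7 days). Replicates were close, and every JNKi library lay above both DMSO libraries of its time. Over the 5 times its change averaged 0.37 (SE 0.035, adjusted p = 4.42e-05 with limma), and at 7 days it was 0.72 (SE 0.079, adjusted p = 5.44e-05 with limma), the smallest p of the 34 in both comparisons.

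Fdxr encodes ferredoxin reductase of mitochondria. Fdxr stood at 381 and 406 (24 h), 366 and 328 (48 h), 287 and 320.1 (72 h), 378 and 344 (96 h) and 256 and 277 (7 days) in DMSO. With JNKi Fdxr stood at 358 and 435 (24 h), 336 and 309 (48 h), 271 and 368 (72 h), 321 and 319 (96 h) and 419 and 429 (7 days). JNKi lay below DMSO at 96 h and above it at 7 days, where DMSO was at its lowest. The change at 7 days was 0.67 (SE 0.14, adjusted p = 0.00838 with limma), against 0.09 in the mean. It was lost without DMSO replicate 1 (0.61, adjusted p = 0.0853), JNKi replicate 1 (0.69, adjusted p = 0.0581) or JNKi replicate 2 (0.65, adjusted p = 0.0581) of that time.

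Sesn2, a sestrin that restrains mTORC1, and Ddit4, another inhibitor of mTORC1, did not pass the test between the arms. In DMSO Sesn2 measured 829 and 640.1 (24 h), 921 and 819 (48 h), 868 and 744 (72 h), 2511 and 2698 (96 h) and 2560.1 and 2053 (7 days). JNKi libraries held Sesn2 at 819.7 and 657 (24 h), 1027 and 866 (48 h), 825 and 1303 (72 h), 2473 and 2655 (96 h) and 1597 and 2112 (7 days). The arms overlapped at all 5 times, and all 4 libraries of 96 h lay above every library of 24 to 72 h.

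With DMSO Ddit4 came to 6520.0 and 5544 (24 h), 4519 and 4206 (48 h), 3625 and 3847 (72 h), 2981 and 5196 (96 h) and 3049.8 and 2819.8 (7 days). Ddit4 with JNKi measured 6320.5 and 5593 (24 h), 5003 and 4315 (48 h), 3595 and 4995 (72 h), 3785 and 5196 (96 h) and 2459 and 2672 (7 days). By group mean Ddit4 was highest at 24 h and lowest at 7 days in both arms, with JNKi below DMSO at 7 days. The mean differences were 0.03 for Sesn2 and 0.05 for Ddit4. Sesn1 (0.01) and Ephx1, an epoxide hydrolase (0.25), did not pass either.

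**Figure D4:**
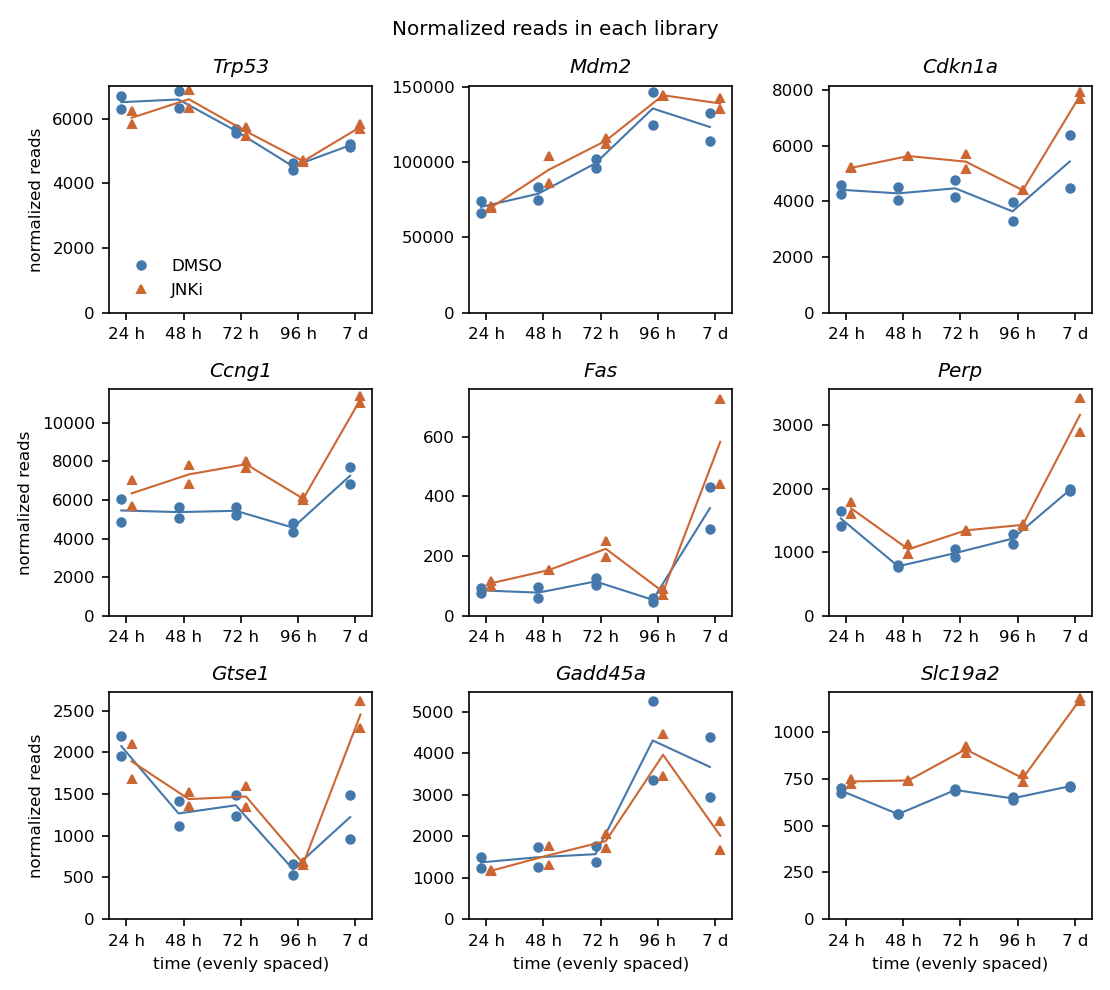
Normalized read counts (y axes, from 0) of 9 of the 34 genes in each of the 20 libraries, by time (x axes, evenly spaced), where each point is 1 library, lines join the group means and colours and symbols separate DMSO from JNKi. Cdkn1a, Fas and Slc19a2 show JNKi above DMSO at all 5 times, and Gtse1 and Gadd45a lie apart in opposite directions at 7 days.

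The difference between the arms was also compared between times. An F-test over all times called 0 of the 34 genes with limma, against 0.324% of all genes. At an unadjusted p under 0.05 it gave 8 of the 34, against 1448 of all 13896 genes tested. By edgeR it called 0, and by DESeq2 3. The difference at 7 days minus that at 24 h was called as larger for 3 of the 34 genes, Gtse1 (1.17), Apaf1 (0.53) and Slc19a2 (0.62), and as smaller for none, against 0.799% and 1.3% of all genes. That count was 0 without JNKi replicate 1 of 7 days, 4 without DMSO replicate 2 of 7 days, and 1 on leaving out DMSO replicate 2 or JNKi replicate 1 of 24 h, or DMSO replicate 1 or JNKi replicate 2 of 7 days.

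With time in DMSO alone, most of the 34 genes changed, more often upward. At 96 h against 24 h 17 rose and 11 fell, against 32.7% and 30.5% of all genes, with a median change of 0.39 against 0.07. At 7 days against 24 h 18 rose and 7 fell, against 32% and 28% of all genes, with a median of 0.41 against 0.06. Both comparisons use the same DMSO libraries of 24 h, and the values of each are given side by side. Over the 5 times of DMSO, an F-test called 31 of the 34 genes, all but Btg2, Bax and Sesn1, where 78% of all genes were called.

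Trp53 fell in DMSO, with a change of -0.53 (SE 0.072, adjusted p = 9.32e-06 with limma) at 96 h and -0.33 (SE 0.072, adjusted p = 0.000969) at 7 days. Mdm2 rose by 0.95 (adjusted p = 1.01e-05 with limma) and 0.81 (adjusted p = 6.92e-05), so that the RNAs of the 2 genes moved in opposite directions. The p53 protein, on which the ligase acts, was not measured here. Mdm4 rose by 0.84 at 96 h and its change of 0.39 at 7 days did not pass. DESeq2 called that change (0.38), as did limma without DMSO replicate 2 of 7 days (0.54), or without either JNKi library of 24 h or of 48 h (0.39).

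The arrest genes did not move as a group. Cdkn1a passed at neither time (-0.28 and 0.28) with all libraries. Without DMSO replicate 2 of 96 h its change at 96 h was called (-0.42), as it was without either DMSO library of 7 days (-0.28), and without replicate 1 of 96 h it was -0.15. At 7 days it was called without DMSO replicate 1 of 7 days (0.53) and was 0.023 without replicate 2. Gadd45a rose by 1.63 and 1.40 and Zmat3 by 0.68 and 0.60. Gtse1 fell by 1.80 at 96 h and by 0.79 at 7 days, the latter by 0.48 without DMSO replicate 1 of 7 days. At 96 h Ccng1 (-0.25) did not pass, although it did without DMSO replicate 2 of 24 h (-0.40) or either JNKi library of 24 h (-0.25). Ccng1 rose at 7 days (0.42), a call lost without DMSO replicate 2 of 24 h (0.26) or of 7 days (0.33). Plk2 and Plk3 rose by 0.69 and 1.16 at 96 h, and at 7 days Plk2 rose by 0.52, while Plk3 (0.42) did not pass. Plk3 did so without DMSO replicate 2 of 7 days (0.63) or either JNKi library of 24 h (0.42). Without DMSO replicate 1 of 24 h the Plk2 calls were lost (0.37 and 0.20), and the latter also without DMSO replicate 1 of 7 days (0.40). Without DMSO replicate 2 of 24 h Plk2 rose by 0.83 at 7 days. Btg2 passed at neither time (0.56 and 0.57), but at 96 h it did without DMSO replicate 2 of 96 h (0.91), and at 7 days in a fit of only the groups compared (0.57).

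All 3 death receptors rose by 7 days, Fas by 2.05 (4.13-fold), Eda2r by 1.51 and Tnfrsf10b by 0.73. At 96 h Eda2r and Tnfrsf10b had risen by 0.85 and 0.37, while Fas fell by 0.66. The fall of Fas was lost without DMSO replicate 1 (-0.51) or 2 of 24 h (-0.81) or DMSO replicate 2 of 96 h (-0.49).

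Among the apoptosis genes, Pmaip1 rose by 1.42 and 1.32 and Bbc3 by 1.04 and 1.23. Ei24 fell by 0.77 and 0.35, and Apaf1 by 0.25 and 0.56. Perp fell by 0.33 at 96 h and rose by 0.38 at 7 days. The call of Apaf1 at 96 h was lost whichever of the 4 libraries compared was left out (-0.23 to -0.27), those of Perp without DMSO replicate 2 of 24 h (-0.21) or replicate 1 of 96 h (-0.24) and, at 7 days, without DMSO replicate 1 of 24 h (0.26), and that of Ei24 at 7 days without DMSO replicate 1 of 7 days (-0.20). Trp53inp1 rose by 0.82 at 96 h, and its 0.39 at 7 days did not pass. It did without DMSO replicate 1 of 24 h (0.66) or replicate 2 of 7 days (0.53), or either JNKi library of 24 h or of 48 h (0.39). Aen rose by 0.41 at 7 days, and its 0.19 at 96 h passed without DMSO replicate 1 of 96 h (0.27) or either DMSO library of 7 days (0.19) but not with all libraries. With upper quartile rescaling Cdkn1a (0.35), Mdm4 (0.46), Plk3 (0.49) and Trp53inp1 (0.46) also passed at 7 days, and Aen (0.26) at 96 h.

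Phlda3, an inhibitor of Akt, fell by 0.25 at 96 h and rose by 0.26 at 7 days. The fall was lost without DMSO replicate 1 of 24 h (-0.20) or replicate 1 (-0.22) or 2 (-0.28) of 96 h. The rise was lost without DMSO replicate 2 of 24 h (0.21) or of 7 days (0.10), and was 0.43 without replicate 1 of 7 days. Bax, a pore former of the mitochondrial membrane, fell by 0.34 at 96 h only, a call lost without DMSO replicate 2 of 24 h (-0.24) or replicate 1 of 96 h (-0.28).

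All 5 repair genes rose at 96 h, led by Rrm2b (1.16), with Xpc at 0.66 and Ercc5 at 0.43, and all but Ddb2 were called also at 7 days. The call of Ddb2 at 96 h (0.41) was lost without DMSO replicate 1 (0.43) or 2 of 24 h (0.39) or replicate 1 of 96 h (0.29). Polk rose by 0.65 and 0.54, and the latter was lost without DMSO replicate 2 of 24 h (0.42) or replicate 1 of 7 days (0.51). Among the metabolic genes Sesn2 rose by 1.84 and 1.65, whereas Ddit4 fell by 0.61 and 1.04 and Fdxr fell at 7 days only, by 0.56. The fall of Ddit4 at 96 h was lost without DMSO replicate 1 of 24 h (-0.49) or of 96 h (-0.21), and it was -1.01 without DMSO replicate 2 of 96 h. Slc19a2 passed at neither time (-0.09 and 0.05). Sesn1, another sestrin, fell by 0.36 and 0.41. Its call at 96 h was lost when any 1 of 14 libraries was left out (-0.32 to -0.40), and that at 7 days without DMSO replicate 1 (-0.37) or 2 (-0.45) of 24 h or replicate 1 of 7 days (-0.32). Ephx1 fell at 96 h only (-1.10), a call lost without DMSO replicate 1 of 24 h (-0.74) or replicate 2 of 96 h (-0.57).

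With JNKi, 17 of the 34 genes rose and 7 fell from 24 to 96 h, against 30.8% and 29% of all genes, and 20 rose and 2 fell to 7 days, against 31.7% and 26.3%. These comparisons share the JNKi libraries of 24 h. Ei24 (-0.25) and Ddit4 (-1.21) were the 2 that fell by 7 days. Cdkn1a rose by 0.58 and Slc19a2 by 0.67 with JNKi from 24 h to 7 days, and Trp53 changed by -0.07, which did not pass.

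**Figure D5:**
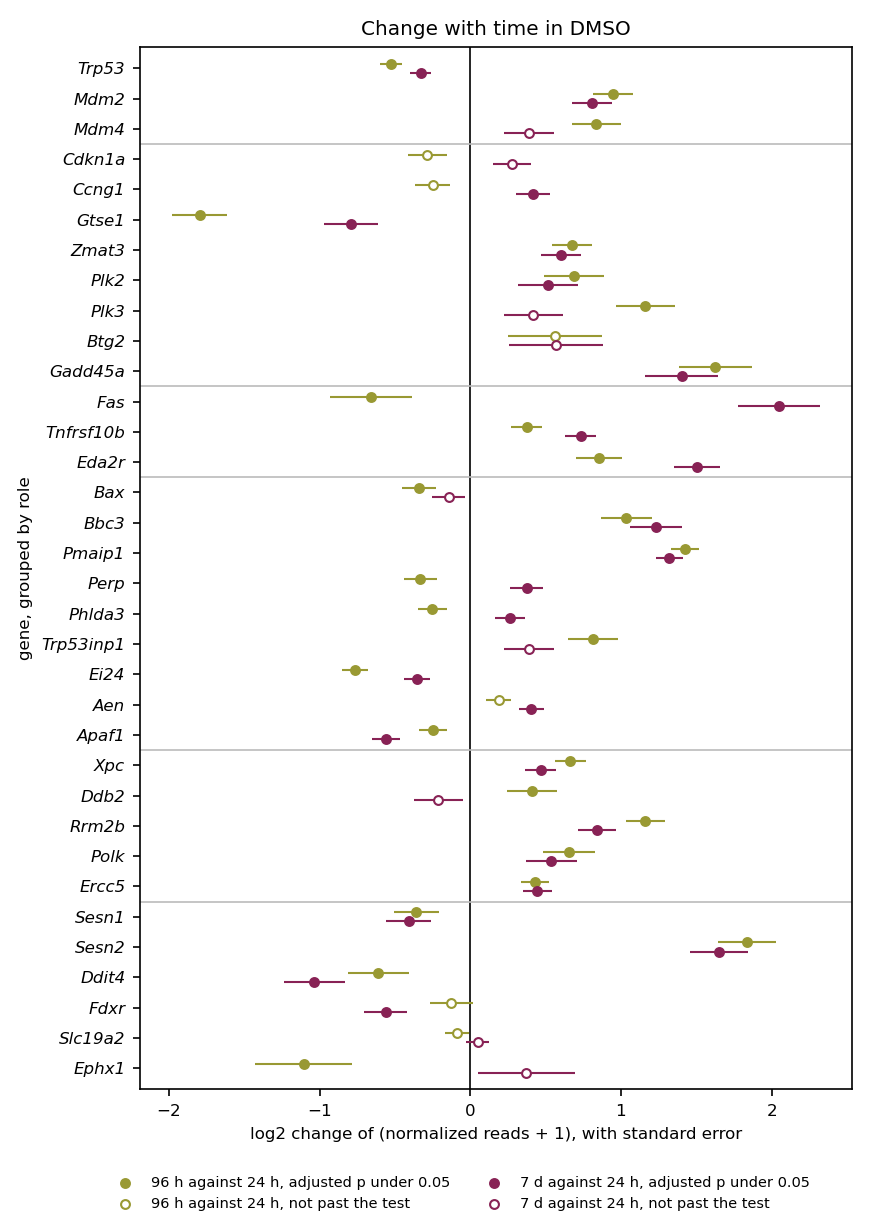
Change in DMSO from 24 h to 96 h and from 24 h to 7 days (x axis, log2 of value + 1, bars are the SE) for each of the 34 genes (y axis, by role), filled where the adjusted p was under 0.05. Fas lies at -0.66 and 2.05, Sesn2 at 1.84 and 1.65, and Gtse1 at -1.80 and -0.79.

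Other genes of the pathway were read from 3 lists. Of 21 tested regulators of p53 (kinases, acetyltransferases and others), 1 fell with JNKi in the mean, Chek1 (-0.24, adjusted p = 0.0421 with limma), and none rose. At 7 days 1 of them rose, Ing1 (0.43), and none fell. Of all genes tested 2.45% rose and 2.32% fell in the mean, and 4.84% and 5.33% at 7 days. In DMSO from 24 h to 7 days none of these 21 rose and 9 fell, against 32% and 28% of all genes. Those that fell included the checkpoint kinases Chek2 (-1.16) and Chek1 (-0.89). Of 26 further p53 targets, 3 rose with JNKi in the mean and none fell, against 2.45% and 2.32% of all genes. Psrc1 (0.59) and Dcxr (0.40) were among those 3. At 7 days 3 rose and 2 fell, against 4.84% and 5.33% of all genes. Among those that rose were Serpinb5 (2.04), of the serpin family, and Psrc1 (1.45). Serpinb5 was low, at 3.4 and 5.4 normalized reads with DMSO and 16.6 and 25.9 with JNKi at 7 days. In DMSO from 24 h to 7 days 11 of the 26 rose and 6 fell, against 32% and 28% of all genes. The rises were led by Gdf15 (2.24), a secreted stress factor.

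Cell cycle genes that p21 represses through the DREAM complex made up the last list, of 20 genes. With JNKi none of the 20 was called with limma in the mean or at any time up to 96 h. Aurkb (0.52, adjusted p = 0.0475 with limma) was the 1 that rose at 7 days, where 4.84% of all genes rose. At 24 h all 20 differences were negative, with a median of -0.22, and at 7 days 19 were positive, with a median of 0.23. At an unadjusted p under 0.05 the counts were 0 in the mean and 1, 0, 1, 2 and 9 at the 5 times in order. Over all 13896 genes tested these counts were 2687 in the mean and 610, 521, 1125, 677 and 3690 at the 5 times. In DMSO all 20 fell by 96 h (median -2.35) and 19 were below their 24 h level by the test at 7 days (median -1.06), Aurkb by -1.78 and Bub1b by -1.60. Of all genes 30.5% fell by 96 h and 28% by 7 days. With all libraries Cdkn1a passed in neither of these 2 comparisons.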

How the data were processed

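Values for the 20 DMSO and JNKi libraries are the signal the authors deposited, a normalized read count for each gene. TopHat, HTSeq, DESeq and build mm9 were used, per the submitters' processing notes, without versions. Strand and the removal of low genes are not stated there, which leaves overlapping or antisense genes uncertain. Dividing each value by its library's smallest step recovered reads: 100% of values lay within 0.1 of a whole read. The recovered reads gave depth and RPM, and precision differs between libraries with depth. The deposited time course table, of the 15 other samples, was not used. In 95.7% of its 11405 genes with any cell at or above 100, neighbouring cells went from there to below 10 and also the other way, so values could not be assigned to libraries.

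Groups and replicate numbers came from the sample titles. limma 3.58.1 (R 4.3.3, intensity trend, two-sided, Benjamini-Hochberg over 13896 genes) was fitted on log2(value + 1) with 1 mean per group over all 20 libraries; fold changes on that scale understate the change of low genes. It was tested on simulated data. Alternatives were other pseudocounts, filters, scalings and variance settings, replicate blocks, smaller sample sets, edgeR 4.0.16 and DESeq2 1.42.0 on the recovered reads, and each library left out. Members and lists were chosen with earlier results of these data known. Values in every library are given for Trp53, Mdm2, Mdm4, Cdkn1a and, in each role group, up to 4 genes past a JNKi test and the 2 with the largest change from 24 h to 7 days in DMSO. Of the other lists up to 4 genes are named, by size of change and level, and a gene that this rule would name is not reported here. Btg2 and the genes beside Mdm2 were named after their values were seen.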

Additional observations from a re-analysis of the deposited data

Results flagged for a closer look

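For 3 of the 34 genes the difference between JNKi and DMSO was larger at 7 days than at 24 h by a test of the difference itself (limma, adjusted over all genes tested). Gtse1 gave 1.17 (SE 0.26, adjusted p = 0.0277), Slc19a2 gave 0.62 (SE 0.11, adjusted p = 0.00799) and Apaf1 gave 0.53 (SE 0.13, adjusted p = 0.0498). For Gtse1 the difference was -0.14 at 24 h and 1.03 at 7 days, for Slc19a2 0.10 and 0.72, and for Apaf1 -0.09 and 0.44. None of the 3 was called without JNKi replicate 1 of 7 days, the library with the lowest depth and high Lars2.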

How the results depend on the processing

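None of the 74 called member differences changed sign under any alternative. Of the 62 not called, 17 changed sign under some alternative, and 47 moved by over 1.5 times when 1 library was left out. Leaving out each library in turn gave 0 to 0 of the 34 genes at 24, 48, 72 and 96 h, 5 to 12 at 7 days (main 11), 9 to 13 in the mean (10), 0 to 1 in the F-test (0), 0 to 4 for 7 days minus 24 h (3), 20 to 30 for DMSO at 96 h (28), 21 to 28 for DMSO at 7 days (25), 17 to 24 and 18 to 23 for JNKi at 96 h and 7 days (24 and 22), and 28 to 31 for the F-test in DMSO (31). DESeq2 gave 5 genes at 72 h and 3 in the F-test, no filter gave 1 in the F-test, variances without a trend gave 1 for 7 days minus 24 h, and a fit of only the groups compared gave 0 there. The mean over 24 to 96 h gave 5, and 10 with a replicate block within each time. The cause of these changes was not tested. For single genes 4267 values kept their side of the threshold, 68 passed it and 119 no longer did.

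Same-numbered replicates of the arms deviated together at 24 to 96 h (correlations of the replicate differences over 9605 genes of 0.73, 0.59, 0.72 and 0.53) but not at 7 days (0.07). The main fit did not take the numbers as pairs at any time, and its lack of calls at 24 to 96 h depends on that choice. With a replicate block within each time, 2, 2, 8 and 1 of the 34 genes were called at 24, 48, 72 and 96 h, 16 at 7 days, 17 in the mean, 8 in the F-test and 7 for 7 days minus 24 h. A replicate block over all libraries gave 11 in the mean and 11 at 7 days.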
